A study of Mus musculus with 6 samples.

Results

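*Cdkn1a*, *Cdkn1b*, *Cdkn2a*, *Cdkn2b*, *Cdkn2c* and *Cdkn2d* encode inhibitors of cyclin-dependent kinases (CDKs). *Rb1* and *Rbl1* encode 2 of the pocket proteins, and *Trp53* and *Mdm2* encode p53 and its main ubiquitin ligase. These 10 genes were taken from the 49671 genes of the count table by their symbols, which were assigned from the Ensembl identifiers, and each symbol matched 1 row. The counts are from 6 RNA-seq libraries of neurospheres, floating colonies of neural stem cells (NSCs) cultured from the subventricular zone of adult mouse brain. Of these, 3 are labelled *Tet3-Gfap* cre and 3 *Tet3-Gfap* control. Both genotypes carry *Tet3* alleles with loxP sites around exon 5. *Tet3-Gfap* cre mice also carry 1 copy of a transgene in which a *Gfap* promoter cassette drives Cre recombinase, and *Tet3-Gfap* control mice lack it. Deletion is thus limited to cells in which the *Gfap* cassette has been active, and other cells of the culture may keep *Tet3*. Mice were 2 to 4 months old, on a C57BL6 background, each culture was started from the brains of a pair of animals, and the cells were grown with EGF and FGF.

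In the cell cycle, cyclin D with CDK4 or CDK6 and cyclin E with CDK2 phosphorylate the pocket proteins, which then release E2F transcription factors and allow entry into S phase. INK4 proteins block CDK4 and CDK6, KIP proteins act mainly on CDK2 complexes, and p53 induces the KIP inhibitor p21 and its own ligase Mdm2. Repression of *Cdkn2a* by the Polycomb protein Bmi1 is known to be required for self-renewal of postnatal NSCs, and p21 is known to restrain the proliferation of adult NSCs.

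The stretches of sequence below come from RefSeq windows of 250 bases before to 50 bases after a start site (build GRCm38.p6), which were found for 9 of the 10 genes (all but *Rb1*), as 12 windows. The first pair is shown because it holds the classical elements of p53 and E2F control in these genes. *Cdkn1a* has 2 windows. In the upstream one, a p53 site of 2 half-sites of 10 letters is in capitals. It departs from the p53 consensus by 1 letter outside the cores and starts 51 bases before the start site of that window. The downstream *Cdkn1a* window (chr17:29093519-29093818) held no such site. No member held a full match, and the search with 1 letter off was added after that. In the *Rbl1* window the E2F motif TTTCGCGC is in capitals, starting 18 bases before the start site.
Cdkn1a, chr17:29090923-29090952 (+): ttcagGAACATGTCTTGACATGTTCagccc
Rbl1, chr2:157204535-157204563 (-): aagaaggcgatTTTCGCGCgctttgtcgc
Windows with a p53 site of this kind made up 0.0548% of all 32851 RefSeq windows, those with TTTCGCGC 0.323%, and those with either TTTCGCGC or TTTGGCGC on either strand 0.813%. The 2 E2F motifs were searched on both strands, and no other window of the members held one of them. A match describes letters and not binding.

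The next 3 stretches are shown because *Cdkn2a* and *Cdkn2b* had the widest differences between the genotypes. TET3 oxidises methylated cytosine, which in mammals lies mostly in CpG pairs, so each CpG is in capitals. Methylation was not measured in these libraries. By ELISA, the study found no change in global methylated or hydroxymethylated cytosine between its control and cre neurospheres. It describes an action of TET3 at *Snrpn* that does not need this oxidation. Each stretch is the 120 bases that end 40 bases before a start site. *Cdkn2a* has an upstream start, which gives p19Arf, and a downstream one, which gives p16Ink4a.
Cdkn2a upstream start, chr4:89294660-89294779 (-): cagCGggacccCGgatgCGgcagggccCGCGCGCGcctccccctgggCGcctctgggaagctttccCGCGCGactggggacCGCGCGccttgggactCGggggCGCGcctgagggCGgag
Cdkn2a downstream start, chr4:89282233-89282352 (-): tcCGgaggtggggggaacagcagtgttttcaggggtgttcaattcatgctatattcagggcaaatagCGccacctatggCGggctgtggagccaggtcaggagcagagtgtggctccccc
Cdkn2b, chr4:89311073-89311192 (-): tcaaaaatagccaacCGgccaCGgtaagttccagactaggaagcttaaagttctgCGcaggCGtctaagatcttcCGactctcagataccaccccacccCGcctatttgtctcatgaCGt
The stretch before the p19Arf start held 18 CpG, more than the same stretch of 96.5% of the 32851 windows. That before the p16Ink4a start held 3, which is the median of all windows, and that before *Cdkn2b* held 7, more than 70.3% of windows.

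Total counts per library ran from 29660398 to 35405326. The targeted gene was checked first. *Tet3* was at 61.2, 60.5 and 116 CPM (counts scaled to the library size) in the libraries labelled cre 1, cre 2 and cre 3, against 114, 136 and 60.2 CPM in those labelled control 1, control 2 and control 3. *Gfap*, part of which is carried by the transgene, was at 3.84, 3.51 and 0.280 CPM in the libraries labelled cre, against 0.502, 0.327 and 6.61 CPM in those labelled control. The library labelled cre 3 thus had the *Tet3* level of control 1 and control 2, and the library labelled control 3 that of cre 1 and cre 2. Each result is therefore given for all 6 libraries by their labels, and for the 4 libraries without cre 3 and control 3. Among the 6 libraries *Tet3* had a log2 fold change of cre over control of −0.38 (SE 0.35, adjusted p = 1.00), and among the 4 libraries −1.04 (SE 0.10, adjusted p = 0.0159, both edgeR's quasi-likelihood test). From its own RNA-seq analysis the study reports that *Tet3* mRNA was lower in cre than in control cultures. Why the 6 libraries by their labels did not give this was not tested. Summed levels of 8 NSC markers were 8853 to 9692 CPM in the libraries labelled cre and 10152 to 10262 CPM in those labelled control. All 8 were above 1 CPM in at least some libraries. The study describes its libraries as triplicates and its culture work as repeated independently, without saying which culture each library came from. The p-values reflect how these libraries vary, which may in part be technical.

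All 10 genes passed the filter on low counts. To compare genes with each other, CPM were divided by the kilobases of annotated exon. On this scale *Cdkn1a* was the highest of the 10, with a mean of 132 CPM per kb (range 103 to 161 over the 6 libraries). *Cdkn2a* followed with 50.9 (38.4 to 79.1) and *Cdkn2c* with 31.3 (30.02 to 32.4). *Mdm2* was at a mean of 25.0 CPM per kb (22.4 to 28.5). The ranges of the first 3 genes overlapped with that of no other gene, and that of *Mdm2* overlapped with that of *Cdkn1b*. *Cdkn2d* at 21.03, *Trp53* at 20.3 and *Cdkn1b* at 20.1 CPM per kb had overlapping ranges, between 17.8 and 23.0. *Rbl1* at 11.9, *Rb1* at 10.8 and *Cdkn2b* at 8.73 CPM per kb were the lowest and also overlapped. *Cdkn2b* reached from 5.78 to 12.2 CPM per kb, the widest relative range of the 10 genes (2.11-fold), followed by *Cdkn2a* (2.06-fold). *Cdkn2c* varied least, by 1.08-fold.

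**Figure D1:**
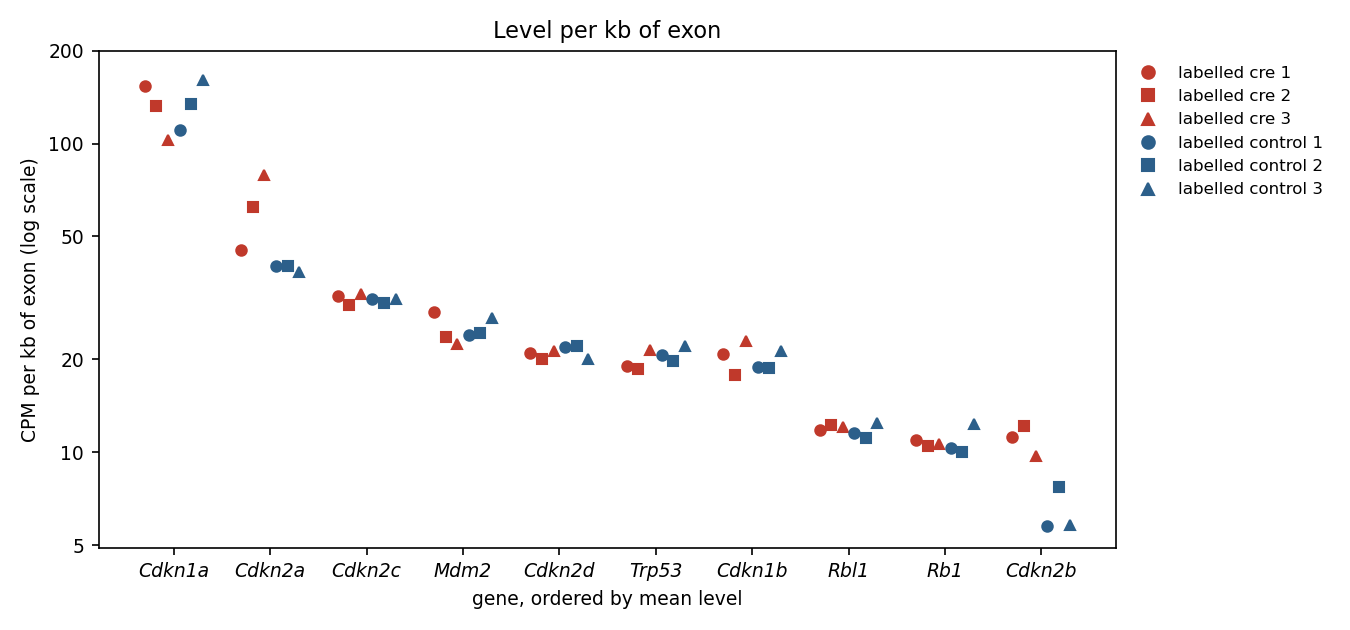
Level of each gene in each library, in CPM per kb of exon on a log axis, ordered by the mean over the 6 libraries. Points are libraries (red, labelled cre; blue, labelled control; circle, square and triangle, numbers 1, 2 and 3), and *Cdkn1a* lies between 103 and 161 while *Cdkn2b* lies between 5.78 and 12.2.

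Of the 10 genes, the INK4 inhibitors *Cdkn2a* and *Cdkn2b*, which are neighbours on chromosome 4, were the only ones whose libraries labelled cre all lay above those labelled control. This was so for 2 of the 10 genes and for 809 of all 16916 genes tested (4.78%). Neither passed the adjusted threshold among the 6 libraries or the 4 libraries. The quasi-likelihood test of edgeR called 0 of the 10 genes and 0 of 16916 genes (0%) among the 6 libraries. For the 4 libraries it called 0 of the 10 genes and 78 of 17003 genes (0.459%), 36 higher (0.212%) and 42 lower (0.247%) in cre. At an unadjusted p under 0.05, 2 of the 10 genes stood among the 6 libraries, both higher in cre, beside 846 of all genes in either direction (5%) and 450 higher in cre (2.66%). The 2 were *Cdkn2a* and *Cdkn2b*. They were again, for the 4 libraries, the 2 members with such a p, beside 1910 of all genes (11.2%) in either direction and 1040 higher in cre (6.12%). With other tools, limma-voom called 0 of the 10 genes in both comparisons, beside 0% of all genes among the 6 libraries and 0.435% among the 4 libraries. Among the 6 libraries DESeq2 called 1 (*Cdkn2b*) and 70 of all genes (0.414%), and edgeR's exact test 2 (*Cdkn2a* and *Cdkn2b*) and 68 of all genes (0.402%). For the 4 libraries DESeq2 called 1 of the 10 genes and 478 of all genes (2.81%), and the exact test 1 and 638 (3.75%), with *Cdkn2b* the member in both. Of all genes, 1.47% were called higher in cre by DESeq2 and 2.04% by the exact test for the 4 libraries, and 0.231% and 0.236% among the 6 libraries.

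**Figure D2:**
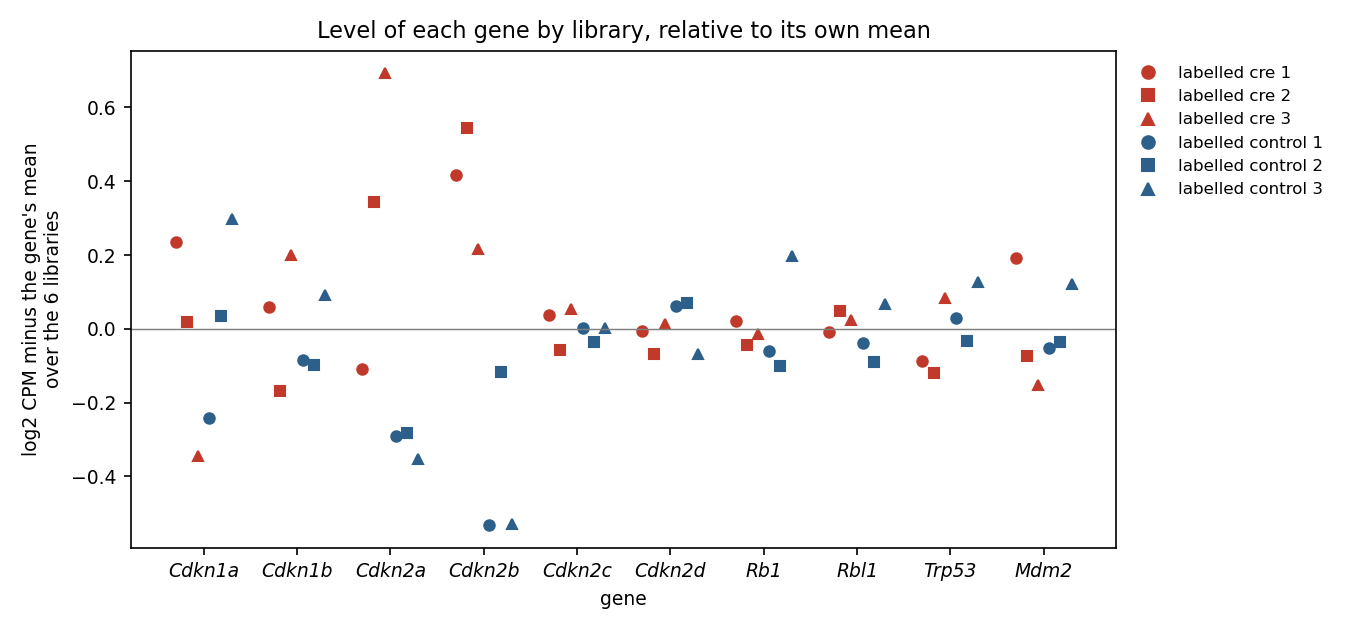
Level of each gene by library as log2 CPM minus the mean of that gene over the 6 libraries (red, labelled cre; blue, labelled control; circle, square and triangle, numbers 1, 2 and 3). The red points of *Cdkn2a* and *Cdkn2b* lie above their blue points, while those of the other 8 genes overlap.

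*Cdkn2b* encodes p15Ink4b, an inhibitor of CDK4 and CDK6 that in other cells is induced by TGF-beta. The gene (ENSMUSG00000073802, chr4:89306299-89311039, minus strand, GRCm38) was at 15.5, 17.0 and 13.5 CPM in the libraries labelled cre 1, cre 2 and cre 3, against 8.04, 10.7 and 8.06 CPM in control 1, control 2 and control 3. The lowest library labelled cre, cre 3, was above the highest labelled control, control 2. Means were 15.3 ± 1.73 CPM in cre and 8.94 ± 1.54 CPM in control (SD, n = 3 each). The log2 fold change was 0.78 (SE 0.15, 95% interval 0.43 to 1.13) among the 6 libraries, with an unadjusted p of 0.00102 and an adjusted p of 0.523 in edgeR's quasi-likelihood test, the 33rd smallest p of 16916. Among the 4 libraries it was 0.79 (SE 0.16, 95% interval 0.40 to 1.18), with an adjusted p of 0.122 in the same test. In the pair of libraries that go against their labels by *Tet3*, *Cdkn2b* was on the side of the label, at 13.5 CPM in cre 3 (*Tet3* at 116 CPM) and 8.06 CPM in control 3 (*Tet3* at 60.2 CPM). If the labels of these libraries had been exchanged, the genotypes would overlap for *Cdkn2b*, and likewise for *Cdkn2a*. The highest *Cdkn2a* value of the 6 libraries (92.7 CPM, labelled cre 3) would then be a control value. The lowest (44.9 CPM, labelled control 3) would be a cre value. Whether the labels were exchanged was not tested. With other tools the adjusted p of *Cdkn2b* among the 6 libraries was 0.00401 with DESeq2 and 0.0419 with edgeR's exact test. Among the 4 libraries it was 0.00882 with DESeq2 and 0.00813 with the exact test.

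*Cdkn2a* encodes p16Ink4a, which blocks CDK4 and CDK6, and from another first exon p19Arf, which binds Mdm2 and so stabilises p53. The deposited counts are per gene and merge these 2 transcripts. *Cdkn2a* (ENSMUSG00000044303, chr4:89274471-89294653, minus strand, GRCm38) was at 53.2, 72.8 and 92.7 CPM in the libraries labelled cre 1, cre 2 and cre 3, against 46.9, 47.1 and 44.9 CPM in control 1, control 2 and control 3. The 3 control libraries lay close together (46.3 ± 1.21 CPM, SD, n = 3), and the cre libraries were spread (72.9 ± 19.8 CPM, SD, n = 3). The highest value was that of the library labelled cre 3, whose *Tet3* level was that of the control libraries. The nearest pair across genotypes was cre 1, with a 95% exact Poisson interval of 50.8 to 55.6 CPM, and control 2, with 44.8 to 49.5 CPM. These intervals cover counting error only. A log2 fold change of 0.65 (SE 0.18, 95% interval 0.24 to 1.07) was fitted among the 6 libraries, with an unadjusted p of 0.00712 and an adjusted p of 0.816 in edgeR's quasi-likelihood test. Among the 4 libraries it was 0.42 (SE 0.14, 95% interval 0.08 to 0.75), with an adjusted p of 0.320 in that test. It was 0.17 when cre 2 was also left out. With other tools the adjusted p among the 6 libraries was 0.0706 with DESeq2 and 0.0426 with the exact test.

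**Figure D3:**
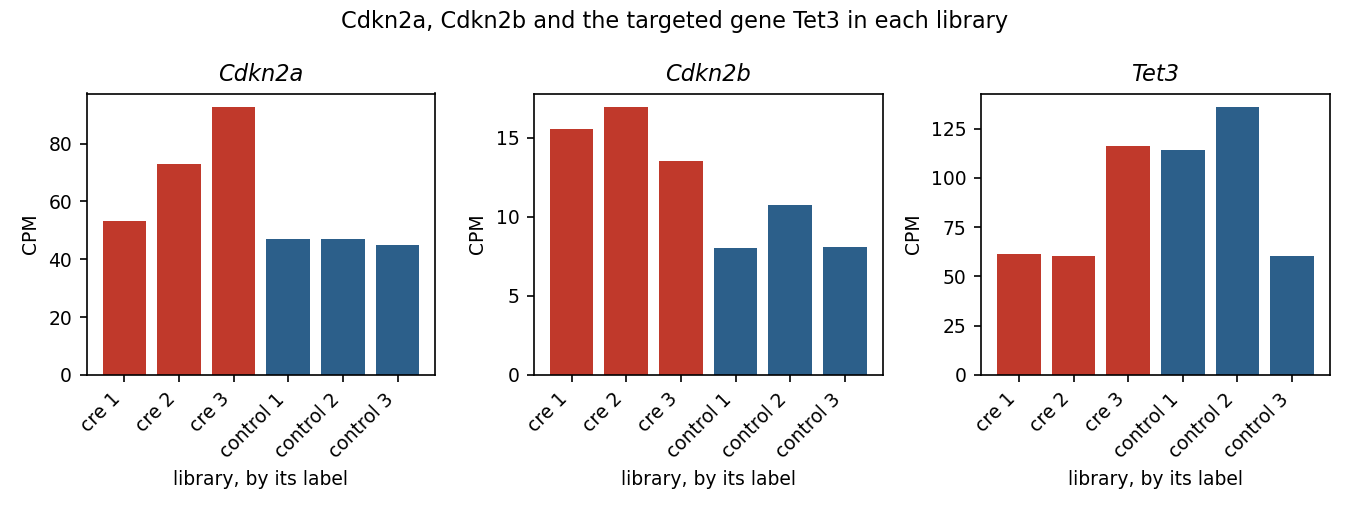
CPM of *Cdkn2a*, *Cdkn2b* and *Tet3* in each of the 6 libraries, named by their labels (red, cre; blue, control). *Cdkn2a* and *Cdkn2b* are above every control library in each cre library, whereas *Tet3* is low in cre 1, cre 2 and control 3 (60.2 to 61.2 CPM).

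The pair did not keep a fixed ratio. *Cdkn2a* counts were 3.43, 4.30 and 6.86 times those of *Cdkn2b* in cre 1, cre 2 and cre 3, against 5.84, 4.40 and 5.58 times in control 1, control 2 and control 3. The longest run of bases that the exons of both genes share is 23. Of 68 annotated genes within 1000000 bases of the pair, 10 were tested, the pair included, and the other 8 overlapped between the genotypes. *Mtap*, which encodes an enzyme of methionine salvage and is named here after its values were seen, was at 127, 122 and 123 CPM in the libraries labelled cre, against 149, 123 and 134 CPM in those labelled control. All libraries labelled cre lay below those labelled control for 0 of the 10 genes, and for 794 (4.69%) of all genes. Without cre 3 and control 3, 4 of the 10 genes were above, beside 20.3% of all genes, and 2 below, beside 20.2%. The sum of 6 ependymal markers was 22.4 to 24.1 CPM in the libraries labelled cre and 16.6 to 19.8 CPM in those labelled control. Nearly all of it was 1 gene, *Foxj1*, at 20.0 to 22.8 CPM in cre and 14.6 to 17.9 CPM in control. Of the others, *Dynlrb2* was at 0.745 to 1.30 CPM in cre and 1.16 to 1.39 CPM in control, and 4 were under 1 CPM in every library, of which *Pifo* and *Tmem212* were at 0. That of 6 pericyte and mesenchymal markers was highest in cre 1 (14.8 CPM), as was that of 6 microglial markers (3.02 CPM), and the remaining 5 libraries had 1.13 to 6.24 CPM and 0 to 0.148 CPM of these. The part of these cells and of the NSC marker difference in the levels of *Cdkn2a* and *Cdkn2b* was not tested. In bulk libraries, fewer cells of a type and less RNA per cell cannot be told apart.

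By the likeness of log2 CPM profiles centred on their mean over the 6 libraries, the 5 genes closest to *Cdkn2b* among 16915 were *AI464131*, *Tppp3*, *Tesmin*, *Snph* and *1110018N20Rik*. Their root mean square differences from it were 0.0780, 0.0973, 0.106, 0.126 and 0.133 on the log2 scale. *AI464131* was at 19.7, 23.7 and 18.2 CPM in cre 1, cre 2 and cre 3, against 11.3, 15.8 and 12.0 CPM in control 1, control 2 and control 3. *Cdkn2a* was in rank 713 by this measure, with a difference of 0.332.

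The other INK4 genes varied little, by 1.08-fold for *Cdkn2c* and 1.10-fold for *Cdkn2d* over the 6 libraries. *Cdkn2c* encodes p18Ink4c, which blocks CDK6 and CDK4, and *Cdkn2d* encodes p19Ink4d, a protein unrelated to p19Arf. *Cdkn2c* (ENSMUSG00000028551, chr4:109660876-109667189, minus strand) was at 86.2, 80.6 and 87.1 CPM in cre 1, cre 2 and cre 3, against 84.1, 81.9 and 84.1 CPM in control 1, control 2 and control 3. *Cdkn2d* (ENSMUSG00000096472, chr9:21288410-21291407, minus strand) was at 32.9, 31.5 and 33.4 CPM in the libraries labelled cre, against 34.5, 34.7 and 31.5 CPM in those labelled control. For both genes the libraries overlapped between the genotypes. *Cdkn2c* had a log2 fold change of 0.02 (95% interval −0.12 to 0.16) and *Cdkn2d* one of −0.04 (−0.21 to 0.13) among the 6 libraries, and the adjusted p of each was 1.00 in edgeR's quasi-likelihood test. For the 4 libraries these were 0.0068 (−0.17 to 0.19) and −0.10 (−0.30 to 0.10).

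For *Cdkn1a* and *Cdkn1b*, the KIP genes among the members, the libraries overlapped between the genotypes. *Cdkn1a* encodes p21, the p53-induced inhibitor of CDK2 complexes. It (ENSMUSG00000023067, chr17:29090976-29100727, plus strand) was at 547, 471 and 366 CPM in cre 1, cre 2 and cre 3, against 393, 476 and 571 CPM in control 1, control 2 and control 3. The order of the libraries was thus not that of the labels, as cre 3 was the lowest and control 3 the highest of the 6. The log2 fold change was −0.06 (SE 0.17, 95% interval −0.47 to 0.35, adjusted p = 1.00) among the 6 libraries and 0.23 (SE 0.12, 95% interval −0.06 to 0.51, adjusted p = 0.568) among the 4 libraries in edgeR's quasi-likelihood test, so that its sign turned when cre 3 and control 3 were left out. Among the 4 libraries, cre 1 and cre 2 still overlapped with control 2. An antisense gene covers 7.68% of the *Cdkn1a* exon bases on the other strand, and the strand setting of the counting is not given in the sources used here.

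*Cdkn1b* encodes p27, which inhibits CDK2 complexes and promotes exit from the cell cycle. It (ENSMUSG00000003031, chr6:134920401-134925513, plus strand) was at 94.9, 81.0 and 105 CPM in cre 1, cre 2 and cre 3, against 86.0, 85.1 and 97.0 CPM in control 1, control 2 and control 3. Both libraries numbered 3 were the highest of their genotype and cre 2 was the lowest of all. The log2 fold change was 0.07 (95% interval −0.18 to 0.31) among the 6 libraries and 0.04 (−0.18 to 0.26) among the 4 libraries.

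The pocket protein genes lay within a narrow range. *Rb1* encodes the retinoblastoma protein, which binds activating E2F factors, and *Rbl1* encodes p107, which binds repressive ones and is itself an E2F target. *Rb1* (ENSMUSG00000022105, chr14:73183673-73325822, minus strand) was at 65.6, 62.8 and 64.0 CPM in cre 1, cre 2 and cre 3, against 62.0, 60.3 and 74.1 CPM in control 1, control 2 and control 3. *Rbl1* (ENSMUSG00000027641, chr2:157145893-157204534, minus strand), whose E2F motif is printed above, was at 70.6, 73.4 and 72.1 CPM in the libraries labelled cre, against 69.1, 66.7 and 74.4 CPM in those labelled control. Control 3 was the highest library for both genes, so that cre lay above control for both when it and cre 3 were left out. The log2 fold change of *Rb1* was −0.03 (95% interval −0.24 to 0.18) among the 6 libraries and 0.07 (−0.10 to 0.24) among the 4 libraries. That of *Rbl1* was 0.04 (−0.11 to 0.19) and 0.08 (−0.09 to 0.25). Genes on the other strand, *Lpar6* and *Rcbtb2*, cover 14.9% of the *Rb1* exon bases.

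*Trp53* encodes p53, which is regulated mostly through the stability of the protein. The gene (ENSMUSG00000059552, chr11:69580359-69591873, plus strand) was at 77.1, 75.4 and 86.8 CPM in cre 1, cre 2 and cre 3, against 83.5, 80.0 and 89.3 CPM in control 1, control 2 and control 3. *Mdm2*, its ligase and target (ENSMUSG00000020184, chr10:117688875-117710758, minus strand), was at 145, 120 and 114 CPM in the libraries labelled cre, against 122, 124 and 138 CPM in those labelled control. *Trp53* was highest in the libraries numbered 3 of both genotypes, and *Mdm2* in cre 1 and control 3, where *Cdkn1a* was also highest. The log2 fold change of *Trp53* was −0.08 (95% interval −0.26 to 0.10) among the 6 libraries and −0.10 (−0.27 to 0.07) among the 4 libraries. That of *Mdm2* was −0.02 (−0.25 to 0.22) and 0.11 (−0.14 to 0.35), and the lowest adjusted p of the pair in these fits with edgeR's quasi-likelihood test was 0.711 (*Trp53*, 4 libraries). The median log2 fold change of the 10 genes was 0.0031 among the 6 libraries, beside −0.0050 for all genes, and 0.08 among the 4 libraries, beside −0.00054.

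**Figure D4:**
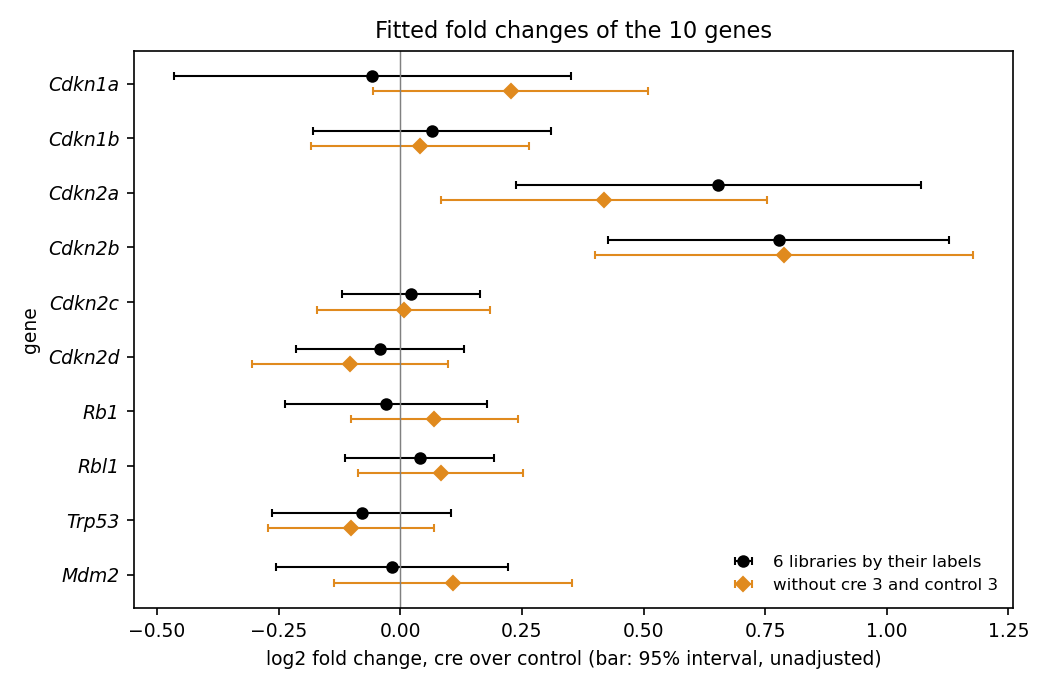
Fitted log2 fold change of cre over control for each gene, with its 95% interval (bar, not adjusted for the number of genes), among the 6 libraries by their labels (circles) and among the 4 libraries without cre 3 and control 3 (diamonds). Intervals leave out 0 for *Cdkn2a* and *Cdkn2b* in both, and *Cdkn1a*, *Rb1* and *Mdm2* change sign between them.

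The kinases and cyclins on which these inhibitors act were present and did not pass the test. Of 8 G1 cyclins and CDKs, 0 were called in either comparison, with a median log2 fold change of 0.05 among the 6 libraries and 0.11 among the 4 libraries. The cyclins D1 and D2 had the highest counts. *Ccnd1* was at 2000 to 2224 CPM in the libraries labelled cre and 1934 to 2343 CPM in those labelled control, and *Ccnd2* at 1151 to 1256 CPM in cre and 1090 to 1293 CPM in control. Of 13 other CDK inhibitors, pocket and E2F proteins, 0 were called in either comparison, with medians of 0.02 and 0.08. *Tfdp1*, the dimer partner of E2F factors, was at 217 to 226 CPM in cre and 218 to 238 CPM in control, and *E2f3* at 73.9 to 79.1 CPM in cre and 76.1 to 80.9 CPM in control.

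Genes that E2F and p53 activate did not pass the test either. Of 26 E2F targets, 0 were called in either comparison, with medians of −0.08 among the 6 libraries and −0.07 among the 4 libraries. Fitted values were below 0 for 23 of the 26 among the 6 libraries, beside 8734 of all 16916 genes. Among the 4 libraries they were below 0 for 19 of the 26, beside 8531 of all 17003 genes. The median E2F target differed from its mean over the 6 libraries by −0.11, 0.02 and −0.01 (log2) in cre 1, cre 2 and cre 3. In control 1, control 2 and control 3 this was 0.04, −0.04 and 0.10. The lowest median was thus that of cre 1 and the highest that of control 3, while cre 2 and cre 3 lay above control 2. The subunits of ribonucleotide reductase had the highest counts, with *Rrm1* at 411 to 452 CPM in cre and 429 to 454 CPM in control, and *Rrm2* at 308 to 338 CPM in cre and 319 to 385 CPM in control. Of 25 p53 targets, 0 were called in either comparison, with medians of 0.0082 and 0.11. *Ccng1*, which encodes cyclin G1, was at 603 to 707 CPM in cre and 553 to 743 CPM in control, and *Trp53inp1*, a stress-induced p53 target, at 363 to 452 CPM in cre and 354 to 477 CPM in control. By library, the median p53 target differed from its mean over the 6 libraries by 0.09, −0.06 and −0.02 on the log2 scale in cre 1, cre 2 and cre 3, and by −0.15, 0.03 and 0.08 in control 1, control 2 and control 3. The highest medians were those of cre 1 and control 3, the libraries in which *Cdkn1a* and *Mdm2* were highest.

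Upstream regulators gave 1 call. Of 14 genes of the p53 family and its regulators, 12 were tested and 0 called, with medians of −0.07 among the 6 libraries and −0.02 among the 4 libraries. *Rpl5*, a ribosomal protein that can bind Mdm2, was at 216 to 231 CPM in cre and 225 to 258 CPM in control, and *Usp7*, a deubiquitinase of Mdm2 and p53, at 186 to 193 CPM in cre and 185 to 196 CPM in control. Of 13 regulators of the *Cdkn2a*-*Cdkn2b* locus, 0 were called, with medians of −0.0082 and 0.07. The Polycomb gene *Bmi1* was at 185, 162 and 181 CPM in cre 1, cre 2 and cre 3, against 156, 158 and 193 CPM in control 1, control 2 and control 3, and *Suz12*, of the other Polycomb complex, at 121 to 127 CPM in cre and 114 to 141 CPM in control. Control 3 was the highest library for both, as it was for *Rb1* and *Cdkn1a*.

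Of 16 regulators of p21 and p27, 0 were called among the 6 libraries and 1 higher in cre among the 4 libraries, with medians of −0.02 and 0.03. The 1 called was *Smad3*, a transducer of TGF-beta signals. It was at 85.7, 83.0 and 66.8 CPM in cre 1, cre 2 and cre 3, against 45.3, 54.5 and 76.0 CPM in control 1, control 2 and control 3. Control 3 was above cre 3, and the log2 fold change was 0.76 (SE 0.10, adjusted p = 0.0425) among the 4 libraries and 0.42 (SE 0.19, adjusted p = 1.00) among the 6 libraries in edgeR's quasi-likelihood test. With library size in place of TMM, or without cre 1 or control 1, 0 of this list were called among the 4 libraries. Of 12 senescence-associated genes, 8 were tested and 0 called, with medians of −0.05 and −0.09. *Igfbp3*, a secreted binding protein of insulin-like growth factors, was at 824 to 1200 CPM in cre and 820 to 1172 CPM in control, and *Lmnb1*, the lamin that is lost in senescent cells, at 449 to 494 CPM in cre and 463 to 513 CPM in control.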

How the data were processed

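The authors prepared stranded mRNA libraries, aligned reads with Subread to GRCm38.p5 and deposited raw counts per gene (Ensembl GRCm38.87, Rsubread). Versions and the strand and multi-mapping settings are not given in the sources used here. The deposited counts hold no normalization and no row without a gene. Differences were tested here over all genes that pass filterByExpr, with the quasi-likelihood test of edgeR 4.0.16 (R 4.3.3) after TMM normalization. Adjusted p-values (Benjamini-Hochberg) under 0.05 were called. CPM use TMM-scaled library sizes. Symbols were missing for 345 genes. Coordinates, exon lengths and overlaps come from an Ensembl 96 annotation of GRCm38, later than that of the authors, and sequences from RefSeq.

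The members and gene lists were chosen with earlier results of these data known. Every member is named, as are called genes of a list or, where there are none, its 2 genes of highest mean CPM, and the 5 genes whose profile is nearest to that of the member with the widest range. Alternatives were DESeq2 1.42.0, the exact test, limma-voom (limma 3.58.1), RLE or library size scaling, other filters, a replicate block and leaving out libraries. The tests were tested on simulated data.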

Additional observations from a re-analysis of the deposited data

How the results depend on the processing

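*Cdkn2a* and *Cdkn2b* kept a positive log2 fold change under every alternative run in both comparisons, and the calls depended on the tool. Every alternative kept the labels of cre 3 and control 3 or left libraries out, and none exchanged these labels. Among the 6 libraries, DESeq2 called 70 genes and 1 of the 10 members, the exact test 68 and 2, no filter on low counts 3 and 0, and leaving out cre 3 and control 3 together 78 and 0. Among the 4 libraries, DESeq2 called 478 genes and 1 member, the exact test 638 and 1, and no filter 1325 and 2 (*Cdkn2a*, adjusted p = 0.00119, and *Cdkn2b*, adjusted p = 1.97e-05, both edgeR's quasi-likelihood test). Genes called when 1 library was left out ran from 0 to 18 among the 6 libraries (18 without control 3) and from 59 to 297 among the 4 libraries (297 without cre 2, 246 without control 2), with 0 members called each time. Leaving out 1 of the 4 libraries leaves 1 genotype with a single library, whose spread is then assumed to be that of the other genotype.

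Leaving out 1 of the 6 libraries gave log2 fold changes of 0.70 to 0.93 for *Cdkn2b* and 0.44 (without cre 3) to 0.84 (without cre 1) for *Cdkn2a*. The sign turned for *Cdkn1a* (−0.20 to 0.084), *Cdkn1b* (−0.024 to 0.16), *Cdkn2c* (−0.00038 to 0.057), *Rb1* (−0.085 to 0.067) and *Mdm2* (−0.13 to 0.051). Without cre 3 and control 3 together it turned for *Cdkn1a* (0.23), *Rb1* (0.070) and *Mdm2* (0.11). Leaving out 1 of the 4 libraries gave 0.60 to 1.01 for *Cdkn2b* and 0.17 to 0.63 for *Cdkn2a*, and turned *Cdkn1b* (−0.083 to 0.15), *Cdkn2c* (−0.045 to 0.053) and *Mdm2* (−0.034 to 0.23). Without a filter *Cdkn2c* turned to −0.0034. None of these 5 genes was called. The causes were not tested.

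With the replicate number as a block, 0 genes were called among the 6 libraries and 169 among the 4 libraries, with 0 members in both. The deviations of same-numbered libraries had correlations of −0.0841, 0.0436 and −0.0169. Each genotype includes a library that goes against its label by *Tet3*, so these correlations cannot show whether same-numbered libraries share a culture or batch. Such sharing was not tested.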
